A study of Mus musculus with 2 samples.

Results

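The transcripts described here are those of 6 MHC class II genes, H2-Aa, H2-Ab1, H2-Eb1, Cd74, H2-DMa and H2-DMb1, taken by symbol from the 32285 genes of the deposited tables. They were measured with Visium, an assay in which a frozen tissue section is laid on an array of barcoded spots. RNA is then counted per spot as unique molecular identifiers (UMIs), and a spot is a small piece of tissue that can hold several cells of different types. The study set a PD1 KO heart (PD1 -/-, both copies of the gene for the inhibitory T cell receptor PD-1 lost) beside a PD1 Het heart (PD1 +/-, 1 copy left), so the comparison has no wild-type section. Both mice were C57BL/6 and had the left anterior descending artery tied at postnatal day 2. Hearts were taken 7 days after the surgery, and transverse sections of 10 um were cut 200 um below the suture and permeabilised for 18 min. No sham-operated heart was analysed here.

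MHC class II molecules present peptides from endocytosed proteins to CD4 T cells. H2-Aa and H2-Ab1 encode the alpha and beta chains of I-A, and H2-Eb1 encodes the beta chain of I-E, whose alpha chain gene is defective in C57BL/6 mice. Cd74 encodes the invariant chain, which escorts new class II dimers to endosomes, where H2-DMa and H2-DMb1 form the H2-DM dimer that exchanges its remnant for antigenic peptides. The genes are known to be transcribed together in dendritic cells, B cells and a subset of macrophages. The RFX complex and NF-Y bind short boxes in their promoters, named X and Y, and recruit the coactivator CIITA, which interferon gamma induces in other cells.

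Promoter stretches with letters like these boxes are printed for the 3 members in which a pair of them was found. RefSeq promoters (build GRCm38.p6, from 250 bases before to 50 after each start) were matched for 4 of the 6 members. Capitals mark CTNGNAAC, as in the X box, and ATTGG, as in the Y box, both chosen after these promoters had been read.
H2-Aa, chr17:34287857-34287917, minus strand: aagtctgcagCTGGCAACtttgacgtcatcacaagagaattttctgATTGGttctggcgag
H2-Eb1, chr17:34305763-34305822, plus strand: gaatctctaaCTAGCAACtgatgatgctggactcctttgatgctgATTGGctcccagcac
H2-DMb1, chr17:34153084-34153144, plus strand: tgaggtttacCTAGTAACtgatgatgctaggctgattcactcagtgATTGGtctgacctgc
The gap between the 2 runs of capitals was 28 bases in H2-Aa, 27 in H2-Eb1 and 28 in H2-DMb1. For H2-DMa, 0 of 2 promoter windows held the pair and 1 held ATTGG. Searched on both strands, CTNGNAAC was present in 13.2% of all 32851 promoter windows and ATTGG in 37.4%. CTNGNAAC followed by ATTGG after 10 to 40 bases was present in 0.371%, or 122 windows. The H2-DMb1 stretch lies before the RefSeq start but inside the gene as GENCODE vM21 draws it, since the annotations place the start differently. A match describes letters and shows no binding.

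The PD1 KO section kept 851 of 859 spots with at least 500 UMIs and held 23520499 UMIs, against 811 of 812 spots and 12814494 UMIs in the PD1 Het section. The median spot had 27134 UMIs in the PD1 KO section and 15475 in the PD1 Het section, and mitochondrial genes took 15.9% and 25.6% of the UMIs. Xist had 1 UMI in the PD1 KO section and 541 in the PD1 Het section, and Y-linked genes had 2900 and 1, so the sections also came from animals that differ in sex-linked transcripts. Genotype, sex, section and depth cannot be told apart with 1 section per genotype. No test was therefore run, each value describes 2 libraries, and intervals are 95% and cover counting error only. Pdcd1, the targeted gene, had 0 UMIs in both sections, which allows up to 0.128 CPM (UMIs of a gene scaled to an equal total per section) in the PD1 KO section and 0.234 CPM in the PD1 Het section. It gives no check of the labels. Heart tissue was evident in both, with 10 cardiomyocyte markers at 63754 CPM in the PD1 KO section and 62372 CPM in the PD1 Het section. The sections shared 225 spot barcodes, which name array positions and not cells.

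All 6 class II genes had a higher CPM in the PD1 KO section. Together they had 2315 UMIs, or 98.4 CPM (94.5 to 102.5), in the PD1 KO section and 461 UMIs, or 36.0 CPM (32.8 to 39.4), in the PD1 Het section, a ratio of 2.74 (2.47 to 3.03). The median gene was itself 1.26-fold higher in CPM, a log2 ratio of 0.33, so log2 ratios called relative have this value subtracted. The relative log2 ratio of the sum was 1.12 (0.98 to 1.27). In bulk and in spots alike, more cells that carry class II RNA and more RNA per cell cannot be told apart.

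The chains of the peptide-binding dimers stood furthest apart between the sections. H2-Aa (ENSMUSG00000036594, chromosome 17, 34282744 to 34287823, GRCm38) had 371 UMIs in the PD1 KO section and 61 in the PD1 Het section, or 15.8 and 4.76 CPM, a relative log2 ratio of 1.40 (1.003 to 1.81). H2-Ab1 (ENSMUSG00000073421, chromosome 17, 34257689 to 34269419) had 475 and 87 UMIs, or 20.2 CPM in the PD1 KO section and 6.79 CPM in the PD1 Het section, a relative log2 ratio of 1.24 (0.91 to 1.59). H2-Eb1 (ENSMUSG00000060586, chromosome 17, 34305867 to 34316674) had 354 UMIs in the PD1 KO section and 60 in the PD1 Het section, or 15.1 and 4.68 CPM, a relative log2 ratio of 1.35 (0.95 to 1.77). These intervals overlap one another, so the 3 chains were not separated by counting error.

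The invariant chain gene followed the chains it escorts. Cd74 (ENSMUSG00000024610, chromosome 18, 60803848 to 60812652) had 959 UMIs in the PD1 KO section and 203 in the PD1 Het section, or 40.8 and 15.8 CPM, a relative log2 ratio of 1.03 (0.81 to 1.26). The peptide exchange genes lay closer to the median gene. H2-DMa (ENSMUSG00000037649, chromosome 17, 34119541 to 34139101) had 116 UMIs in the PD1 KO section and 35 in the PD1 Het section, or 4.93 and 2.73 CPM, a relative log2 ratio of 0.52 (-0.04 to 1.11). H2-DMb1 (ENSMUSG00000079547, chromosome 17, 34153072 to 34160230) had 40 UMIs in the PD1 KO section and 15 in the PD1 Het section, or 1.70 and 1.17 CPM, a relative log2 ratio of 0.21 (-0.68 to 1.17). H2-DMb1 has a close copy, H2-DMb2, and reads shared by both could be assigned to either, so the value of each is uncertain.

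Read as groups, the alpha and beta chain genes summed to 51.0 CPM in the PD1 KO section and 16.2 CPM in the PD1 Het section, 3.14-fold (2.71 to 3.66). The H2-DM genes summed to 6.63 CPM in the PD1 KO section and 3.902 CPM in the PD1 Het section, 1.70-fold (1.23 to 2.39), an interval that does not meet that of the chains. The median relative log2 ratio of the 6 members was 1.14, against 0 for all genes by construction. A distance of 1.5-fold over the median gene was reached by 4 of 6 members, and 0 of 6 lay under it by that much. Of all 11455 genes whose UMIs reached 100 over both sections, 5.5% were over it by that distance and 3.3% under it. Cd74 gave 41.4% of the class II UMIs in the PD1 KO section and 44.0% in the PD1 Het section, and H2-DMa and H2-DMb1 gave 5.01% and 1.73% in the PD1 KO section and 7.59% and 3.25% in the PD1 Het section.

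**Figure D1:**
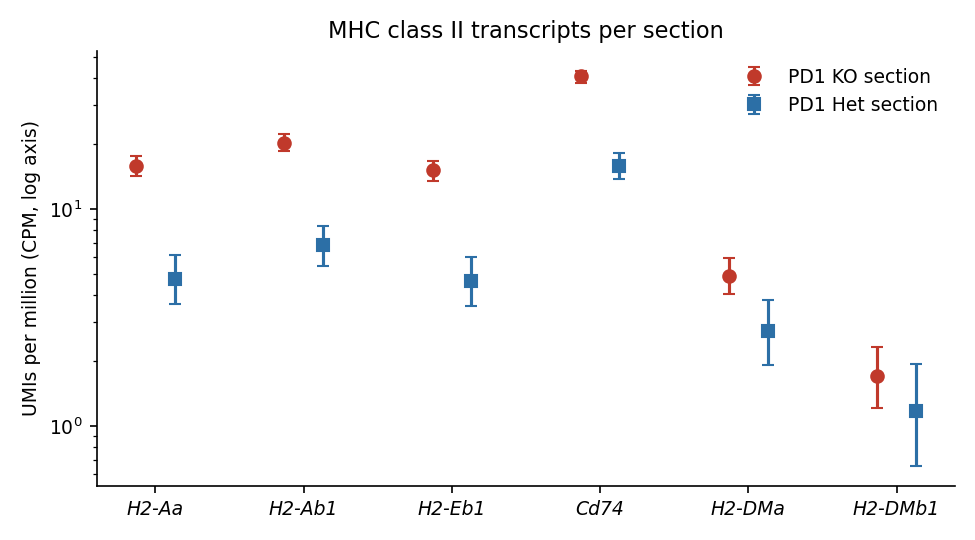
Level of each class II gene in CPM on a log axis, with the PD1 KO section as red circles left of the PD1 Het section as blue squares and 95% counting intervals as bars. The intervals of both sections are apart for H2-Aa, H2-Ab1, H2-Eb1, Cd74 and H2-DMa (4.93 against 2.73 CPM) and overlap for H2-DMb1 (1.70 against 1.17 CPM).

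Genes that work with class II molecules lay on both sides of the median gene. Of 31 listed pathway genes, 28 were matched to a symbol and 21 reached 30 UMIs over both sections, with a median relative log2 ratio of -0.05. Of these 21, 2 were over the median gene by 1.5-fold or more, 1 was under it by that much, and 18 were between. Of all genes with at least 100 UMIs, 5.5% were over it and 3.3% under it by that distance. On so few genes these counts do not set the pathway list apart from all genes. The highest was Ctss, cathepsin S, which trims the invariant chain, with 856 UMIs in the PD1 KO section and 122 in the PD1 Het section, a relative log2 ratio of 1.60 (1.33 to 1.89). Cd40, a costimulatory receptor of antigen-presenting cells, had 147 and 39 UMIs in that order, a relative log2 ratio of 0.71 (0.19 to 1.26). The gene below was H2-DMb2, at -1.03 (-2.12 to 0.08) on 17 and 15 UMIs, again with reads that H2-DMb1 may share.

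The transcription factors of the class II promoter and the other processing genes lay near the median gene. The relative log2 ratio was 0.28 (-0.08 to 0.64) for Rfx5, 0.00 (-0.24 to 0.25) for Rfxap, -0.28 (-0.53 to -0.03) for Rfxank, 0.22 (-0.03 to 0.47) for Nfya, -0.13 (-0.36 to 0.11) for Nfyb and -0.05 (-0.17 to 0.07) for Nfyc. Ciita, the coactivator, had 8 UMIs in the PD1 KO section and 5 in the PD1 Het section, too few for its level to be compared. For the interferon gamma arm, Ifng had 1 and 0 UMIs in that order, while Irf1 lay at -0.11 (-0.39 to 0.17), Ifngr1 at -0.18 (-0.30 to -0.06) and Ifngr2 at 0.32 (0.22 to 0.42). The endosomal proteases Ctsl and Lgmn lay at -0.12 (-0.19 to -0.05) and -0.28 (-0.38 to -0.18), and the thiol reductase gene Ifi30 at 0.13 (-0.15 to 0.42). The costimulatory genes Cd86 and Cd83 lay at -0.05 (-0.81 to 0.74) and -0.10 (-0.48 to 0.29), and Mif and Cd44, the ligand and co-receptor of Cd74, at 0.12 (0.05 to 0.19) and 0.25 (0.01 to 0.50). Cd80, Cd4 and March1, the ubiquitin ligase that removes class II from the surface, had 7, 7 and 20 UMIs in the PD1 KO section and 1, 3 and 6 in the PD1 Het section. H2-Eb2, the copy of H2-Eb1, had 0 UMIs in both sections, and H2-Oa and H2-Ob, whose product restrains H2-DM in B cells, had 4 and 23 UMIs in the PD1 KO section and 3 and 12 in the PD1 Het section.

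Class II RNA was found in a minority of spots once depth was made equal. Each spot was thinned to 10000 UMIs, which left out 12 spots of the PD1 KO section and 52 of the PD1 Het section. Spots rich in scar matrix or macrophage markers were left out more often. In the 5th of spots richest in scar matrix genes, 130 of 162 PD1 Het spots and 161 of 170 PD1 KO spots stayed. In the 5th richest in macrophage markers, 140 of 162 and 161 of 170 stayed in that order. Thinned shares, co-detection and the class II spots below lack the spots left out. At least 1 class II UMI was then present in 278 of 839 PD1 KO spots, or 33.1% (29.95 to 36.4), and in 173 of 759 PD1 Het spots, or 22.8% (19.9 to 25.9). Without thinning the shares were 53.1% and 29.7%. The ratio between the sections, though not the difference in percentage points, was larger with more UMIs asked for. At least 2 UMIs were present in 15.0% (12.7 to 17.6) of PD1 KO spots and 5.80% (4.24 to 7.70) of PD1 Het spots, and at least 3 in 9.18% (7.31 to 11.3) and 1.84% (1.01 to 3.08).

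Single class II UMIs were also found where macrophage markers were scarce. In the 5th of spots with the lowest share of macrophage marker UMIs, 15.98% (10.8 to 22.4) of PD1 KO spots and 21.2% (15.0 to 28.6) of PD1 Het spots had one, at median depths of 28445 and 16377 UMIs. The share over all PD1 KO spots lies above the interval of its own macrophage-poor spots, whereas the share over all PD1 Het spots lies inside it, so 1 UMI in a PD1 Het spot was not told apart from this level. Macrophage-poor spots may also hold other class II cells. In the 5th with the highest share of macrophage marker UMIs, 65.8% (58.0 to 73.1) of PD1 KO spots and 32.1% (24.5 to 40.6) of PD1 Het spots had a class II UMI. At the same thinned depth, single genes ranged in PD1 KO spots from 1.67% for H2-DMb1 to 18.7% for Cd74, and in PD1 Het spots from 0.922% to 11.7% for the same genes.

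The class II genes tended to be detected in the same spots. Among thinned spots with any member, 109 of 278 in the PD1 KO section, or 39.2% (33.4 to 45.2), held at least 2 members, against 34 of 173, or 19.7% (14.01 to 26.4), in the PD1 Het section. Of the PD1 KO spots, 169 held exactly 1 member, 54 held 2, 26 held 3, 17 held 4, 11 held 5 and 1 held all 6. Of the PD1 Het spots, 139 held exactly 1 member, 26 held 2, 4 held 3, 2 held 4, 1 held 5 and 1 held all 6. Spots with 3 or more members were thus mostly from the PD1 KO section, and since more UMIs per spot give more co-detection, these counts also carry the difference in level.

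Within each section the chain genes and their escort gene Cd74 were found more often in spots that held a partner than in spots that did not, with wide intervals in the PD1 Het section. H2-Aa was present in 38.3% (28.5 to 48.9) of PD1 KO spots with H2-Ab1 and in 6.44% (4.79 to 8.45) of those without it. Of PD1 Het spots with H2-Ab1, 14.3% (5.94 to 27.2) held H2-Aa, as did 2.39% (1.40 to 3.81) of those without. The same order held for H2-Eb1, present in 37.2% (27.5 to 47.8) of PD1 KO spots with H2-Ab1 and 7.65% (5.85 to 9.80) of those without, and in 20.4% (10.2 to 34.3) and 2.96% (1.84 to 4.49) of such PD1 Het spots. Cd74 was present in 59.5% (48.3 to 70.1) of PD1 KO spots with H2-Aa and 14.2% (11.8 to 16.9) of those without. For Cd74 in PD1 Het spots the shares were 29.2% (12.6 to 51.1) with H2-Aa and 11.2% (8.97 to 13.7) without. These intervals overlap, so this PD1 Het pair was not separated by counting error.

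H2-DMa shared spots with the other members in the PD1 KO section, and the PD1 Het counts were too low to show it. In the PD1 KO section H2-DMa was present in 12.1% (7.45 to 18.3) of spots with Cd74 and 3.52% (2.27 to 5.19) of those without. These shares in the PD1 Het section were 2.25% (0.27 to 7.88) on 2 spots with both genes and 2.99% (1.83 to 4.57). H2-DMa and H2-DMb1 met in 2 PD1 KO spots and 1 PD1 Het spot at this depth.

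**Figure D2:**
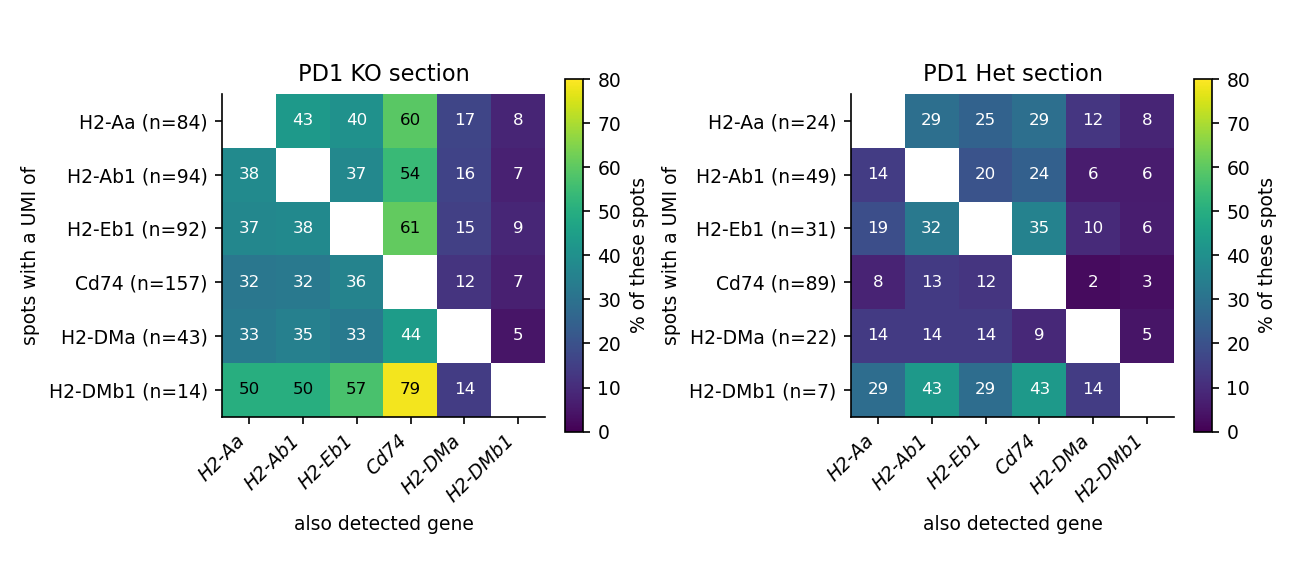
Share of spots with a UMI of the row gene that also hold a UMI of the column gene, in percent, after thinning to 10000 UMIs, for the PD1 KO section on the left and the PD1 Het section on the right; n is the number of spots with the row gene. Cd74 is found in 54.3 to 60.9% of PD1 KO spots with a chain gene and in 24.5 to 35.5% of such PD1 Het spots, and the H2-DMb1 rows rest on 14 and 7 spots.

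Class II RNA was concentrated in few spots in both sections. The 5% of spots with the most class II UMIs held 56.0% of them in the PD1 KO section (43 spots) and 47.7% in the PD1 Het section (41 spots). The corresponding 5% for macrophage markers held 26.2% of their UMIs in the PD1 KO section and 21.4% in the PD1 Het section, and for all UMIs 8.04% and 8.65%. A set of 34 PD1 KO spots and 47 PD1 Het spots was enough to hold 50% of the class II UMIs. The PD1 Het figure rests on 461 UMIs, and a sum with fewer UMIs falls on fewer spots by counting alone.

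Overdispersion, the variance between spots beyond counting error over the squared mean, takes account of counting error and depth. For the class II sum it was 9.89 in the PD1 KO section and 7.10 in the PD1 Het section, against a median of 0.097 over 10802 genes and 0.131 over 8609 genes with at least 100 UMIs. Both class II values lay at percentile 99.8 of these genes. For macrophage markers it was 1.72 in the PD1 KO section and 0.93 in the PD1 Het section, and for blood vessel endothelial markers 0.053 and 0.042. Among the members in the PD1 KO section it ranged from 2.22 for H2-DMb1 to 11.99 for H2-Ab1. In the PD1 Het section it ranged from -0.73 for H2-DMb1, whose 15 UMIs lay in 15 spots, to 23.0 for H2-Aa, whose 61 UMIs lay in 42 spots.

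**Figure D3:**
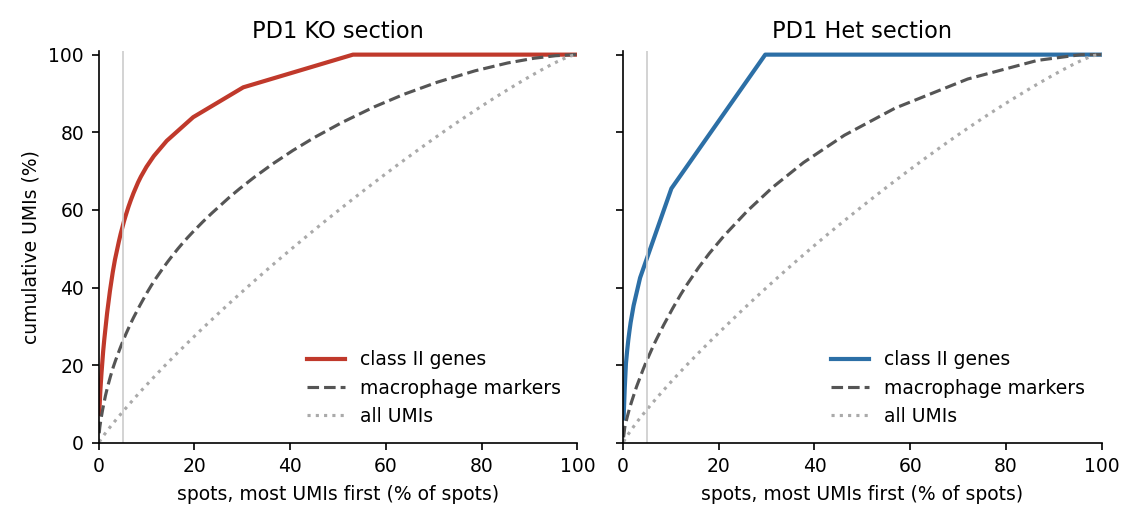
Cumulative share of UMIs, in percent, held by the spots with the most of them, counted along the horizontal axis in percent of spots, for the class II genes, the macrophage markers and all UMIs; the grey vertical line stands at 5% of spots. At that line the class II curve is at 56.0% in the PD1 KO section on the left and 47.7% in the PD1 Het section on the right, above the macrophage curve in both.

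The richest class II spots were not alike in what else they held. The first PD1 KO spot had 173 class II UMIs, made of 21 H2-Aa, 43 H2-Ab1, 34 H2-Eb1, 70 Cd74 and 5 H2-DMa UMIs. It also had 106 macrophage marker UMIs, rank 9 in its section by share, 8 dendritic cell and 0 B cell marker UMIs. The second PD1 KO spot had 71 class II UMIs beside 155 UMIs of Ccl5, a chemokine of activated T cells, NK cells and some dendritic cells, 19 dendritic cell and 7 T cell marker UMIs and 5 UMIs of Ccl21a, the chemokine of lymphatic vessels and lymphoid stroma. The next 3 PD1 KO spots had 69, 54 and 48 class II UMIs and 100, 69 and 30 macrophage marker UMIs. The first spot of the PD1 Het section had 29 class II UMIs and 14 macrophage marker UMIs, rank 227. Its second spot had 19 class II UMIs and 9 B cell marker UMIs, and the spot of rank 4 had 15 class II and 68 macrophage marker UMIs, rank 2. Each of these is a single spot, shown as an example.

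Macrophage markers were higher in spots with class II RNA, by more in the PD1 KO section. Spots with at least 1 class II UMI after thinning are called class II spots, and levels in them are CPM of all UMIs other than the 6 members. The 14 macrophage markers summed to 775 CPM in class II spots and 335 CPM in other spots of the PD1 KO section, 2.32-fold (2.23 to 2.41), and 13 of 14 were at least 1.5-fold higher. In the PD1 Het section they summed to 453 and 351 CPM, 1.29-fold (1.21 to 1.37), and 3 of 13 genes with at least 30 UMIs were as much higher. Over all genes with at least 100 UMIs, 2.55% were at least 1.5-fold higher in class II spots of the PD1 KO section and 1.71% in the PD1 Het section. As much lower were 0.296% in the PD1 KO section and 1.06% in the PD1 Het section. These shares are the background for the counts of genes given for each list below. Differences between the sections in these and the following ratios were not tested. Class II spots had a median of 25861 UMIs and other spots 28220 in the PD1 KO section, against 15673 and 15744.5 in the PD1 Het section.

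By the lower of both sections, the macrophage genes furthest up were Cd68, a lysosomal glycoprotein, Mpeg1, a pore-forming protein of phagosomes, and Aif1, an actin-binding protein. Cd68 was 3.62-fold (2.73 to 4.83) higher in class II spots of the PD1 KO section and 2.35-fold (1.45 to 3.77) in the PD1 Het section. Mpeg1 was 3.99-fold (3.24 to 4.93) and 1.94-fold (1.21 to 3.07) higher in that order, and Aif1 2.18-fold (1.57 to 3.01) and 1.67-fold (1.09 to 2.52). The general macrophage receptor gene Csf1r stood at 1.64-fold (1.38 to 1.96) in the PD1 KO section and 1.05-fold (0.79 to 1.37) in the PD1 Het section. Among the pathway genes in the PD1 KO section, Ctss was 3.93-fold (3.40 to 4.55) and Ifi30 1.79-fold (1.43 to 2.22) higher in class II spots. In the PD1 Het section Ctss stood at 1.101-fold (0.69 to 1.70) and Ifi30 at 1.58-fold (1.07 to 2.30).

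Genes of monocytes and injury macrophages were higher in class II spots of the PD1 KO section, and by less in the PD1 Het section, where 1 spot held 121 of their 1245 UMIs. The monocyte and injury list was 2.91-fold (2.73 to 3.11) higher in class II spots of the PD1 KO section, with 8 of 9 genes at least 1.5-fold higher, and 1.13-fold (0.99 to 1.30), with 0 of 6, in the PD1 Het section. Without that spot the PD1 Het ratio was 1.32 (1.15 to 1.51). A single PD1 KO spot held 301 of the 3725 UMIs there, and without it the PD1 KO ratio was 2.49 (2.32 to 2.67). With at least 2 class II UMIs, all spots kept, the ratio was 4.81 (4.47 to 5.16) in the PD1 KO section and 1.68 (1.36 to 2.06) in the PD1 Het section. Without the same single spots these were 3.86 (3.58 to 4.16) and 1.95 (1.57 to 2.40). Lgals3, which encodes galectin-3, was 8.01-fold (6.32 to 10.2) higher in the PD1 KO section and 1.40-fold (0.75 to 2.52) in the PD1 Het section. Spp1, which encodes osteopontin, was 6.63-fold (5.56 to 7.92) and 1.20-fold (0.85 to 1.67) higher in that order, and the lipid receptor gene Trem2 2.96-fold (2.28 to 3.84) and 1.31-fold (0.76 to 2.17). For Spp1 a single PD1 Het spot without class II held 68 UMIs, and without that spot the PD1 Het ratio was 2.36 (1.61 to 3.45). Without the PD1 KO spot richest in Spp1, with 132 UMIs, the PD1 KO ratio was 4.91 (4.08 to 5.91).

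As a sum, resident macrophage genes were 1.16-fold (1.09 to 1.22) higher in class II spots of the PD1 KO section, with 0 of 8 at least 1.5-fold higher and 1 as much lower, and 1.22-fold (1.11 to 1.33) in the PD1 Het section, with 2 of 8. Of all genes, 2.55% in the PD1 KO section and 1.71% in the PD1 Het section were as much higher, so 0 of 8 lies near that share. The median ratio of these 8 genes was 0.96 in the PD1 KO section and 1.21 in the PD1 Het section. In PD1 KO class II spots Gas6 alone gave 850 of the 1760 UMIs of the list, so the PD1 KO sum does not describe its genes one by one. F13a1, the coagulation factor XIII subunit of resident macrophages, stood at 0.72-fold (0.53 to 0.98) in the PD1 KO section and 0.99-fold (0.69 to 1.41) in the PD1 Het section. Gas6, Igf1 and Maf, the genes of this list furthest up by the lower of both sections, reached 1.28, 1.29 and 1.13-fold in the PD1 KO section and 1.19, 1.17 and 1.74-fold in the PD1 Het section. Over the whole sections, resident genes had a median relative log2 ratio of -0.88, with 6 of 9 at least 1.5-fold below the median gene, and the monocyte and injury genes 0.999, with 5 of 9 as far above, beside the 3.3% and 5.5% of all genes given above. The summed resident list stood at -0.24 (-0.30 to -0.17) and the summed monocyte and injury list at 0.37 (0.28 to 0.47). The part of this shift in the class II difference was not tested.

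Markers of the other professional antigen-presenting cells were also in class II spots, with more of the dendritic cell signal in the PD1 KO section and of the B cell signal in the PD1 Het section. Dendritic cell markers were 1.89-fold (1.64 to 2.17) higher in class II spots of the PD1 KO section and 1.11-fold (0.85 to 1.44) in the PD1 Het section. Irf8, a transcription factor of dendritic cells and other myeloid cells, was 1.57-fold (1.23 to 2.0) and 1.24-fold (0.78 to 1.92) higher in that order. Zbtb46, a transcription factor of classical dendritic cells that endothelial cells also express, stood at 1.28-fold (1.02 to 1.60) in the PD1 KO section and 0.85-fold (0.56 to 1.24) in the PD1 Het section. Itgax, which encodes CD11c, had 59 UMIs in class II spots and 13 in other spots of the PD1 KO section, 10.3-fold (5.56 to 20.4), and 3 against 8 UMIs in the PD1 Het section. It was chosen after its values were seen. The injury macrophage genes Lgals3 and Spp1 were 8.01-fold and 6.63-fold higher in the same PD1 KO spots, so the cells that carried Itgax were not told apart.

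B cell markers were 1.63-fold (1.35 to 1.97) higher in class II spots of the PD1 KO section, with 3 of 4 genes at least 1.5-fold higher, and 2.49-fold (1.99 to 3.12) in the PD1 Het section, with 3 of 3. Cd79b, a signalling chain of the B cell receptor, was 2.20-fold (1.35 to 3.58) higher in the PD1 KO section and 2.64-fold (1.501 to 4.60) in the PD1 Het section. The immunoglobulin chain genes Igkc and Ighm were 1.92-fold (1.18 to 3.11) and 1.33-fold (1.002 to 1.74) higher in the PD1 KO section, and 1.86-fold (1.12 to 3.04) and 2.28-fold (1.60 to 3.24) in the PD1 Het section. B cell markers over the whole section were lower in the PD1 KO section, at 19.7 CPM, than in the PD1 Het section, at 26.5 CPM.

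T cell markers were few. They had 89 UMIs in class II spots and 92 in other spots of the PD1 KO section, 2.19-fold (1.62 to 2.96), and 17 and 52 UMIs in the PD1 Het section, 1.11-fold (0.60 to 1.94). Cytotoxic and NK cell markers were 15.3-fold (10.6 to 22.6) higher in class II spots of the PD1 KO section, but most of these UMIs were Ccl5 in 1 spot, and without that spot the ratio was 4.80 (3.15 to 7.45). Ccl5 gave 214 of the 230 UMIs of this list in PD1 KO class II spots and 28 of the 34 in other spots, so the PD1 KO ratio is mostly that of Ccl5. In the PD1 Het section the list stood at 2.46-fold (0.86 to 6.71) on 19 UMIs in the spots compared. Neutrophil markers were 1.44-fold (1.07 to 1.92) higher in class II spots of the PD1 KO section and 1.98-fold (1.39 to 2.79) in the PD1 Het section.

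Mast cell proteases shared class II spots in both sections, although mast cells are not classed as professional antigen-presenting cells. The mast cell list was 3.73-fold (3.25 to 4.28) higher in class II spots of the PD1 KO section and 2.97-fold (2.51 to 3.51) in the PD1 Het section, with 4 of 5 genes at least 1.5-fold higher in each. Cpa3, carboxypeptidase A3, was 6.37-fold (3.86 to 10.9) higher in the PD1 KO section and 4.06-fold (2.43 to 6.82) in the PD1 Het section, and the chymase gene Cma1 5.91-fold (4.54 to 7.74) and 3.77-fold (2.87 to 4.95). The tryptase gene Tpsb2 was 12.8-fold (6.88 to 26.0) and 3.79-fold (2.44 to 5.93) higher in that order. A single class II spot held 177 of the 918 mast cell UMIs of the PD1 KO section, and another 94 of the 658 of the PD1 Het section. Without those spots the list stood at 2.57-fold (2.21 to 2.98) in the PD1 KO section and 1.94-fold (1.60 to 2.34) in the PD1 Het section.

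As summed lists, blood vessel endothelial and mural cell markers hardly differed between class II spots and other spots, while single mural genes of the PD1 KO section did. Endocardial and activated vessel lists were slightly higher in class II spots, and the endocardial values rested in part on single spots. Blood vessel endothelial markers stood at 1.02-fold (1.002 to 1.04) in class II spots of the PD1 KO section and 0.99-fold (0.96 to 1.02) in the PD1 Het section, with 0 of 11 genes at least 1.5-fold higher in either. Of all genes, 2.55% in the PD1 KO section and 1.71% in the PD1 Het section were as much higher. The count of 0 of 11 therefore does not set this list apart from all genes. Pecam1, the adhesion molecule CD31, stood at 1.11-fold (1.03 to 1.19) and 1.06-fold (0.94 to 1.20) in that order. Emcn, the endothelial sialomucin endomucin, stood at 1.04-fold (0.93 to 1.16) in the PD1 KO section and 1.11-fold (0.95 to 1.31) in the PD1 Het section. Genes of activated capillaries and veins stood at 1.13-fold (1.07 to 1.18) in the PD1 KO section and 1.08-fold (1.001 to 1.16) in the PD1 Het section. Within that list Vcam1, which encodes a leukocyte adhesion molecule, stood at 1.49-fold (1.26 to 1.75) in the PD1 KO section and 1.20-fold (0.90 to 1.58) in the PD1 Het section. Mural cell markers stood at 0.97-fold (0.951 to 0.998) and 0.99-fold (0.95 to 1.03), and endocardial markers at 1.13-fold (1.03 to 1.25) and 1.29-fold (1.098 to 1.51) in the same order. Without the richest endocardial spot of each section, endocardial markers stood at 1.09-fold (0.99 to 1.20) and 1.15-fold (0.98 to 1.36). With class II spots set by the alpha and beta chain genes alone, they stood at 1.14-fold in the PD1 KO section and 0.91-fold in the PD1 Het section.

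Lymphatic endothelial markers as a list stood at 1.15-fold (1.04 to 1.26) in class II spots of the PD1 KO section and 0.97-fold (0.82 to 1.14) in the PD1 Het section. The genes of this list were not alike, and Ccl21a had the highest ratio among them in the PD1 KO section. It had 32 UMIs in class II spots and 7 in other spots of the PD1 KO section, 10.3-fold (4.48 to 27.7), and 39 and 158 UMIs in the PD1 Het section, 0.83-fold (0.57 to 1.19). A single PD1 Het spot without class II held 55 of its UMIs, and without it the PD1 Het ratio was 1.28 (0.86 to 1.86). Without the PD1 KO spot richest in Ccl21a, with 10 UMIs, the PD1 KO ratio was 7.15 (2.95 to 19.8). Pdpn, podoplanin, stood at 1.38-fold (1.001 to 1.88) in the PD1 KO section and 1.51-fold (0.90 to 2.46) in the PD1 Het section.

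Scar and fibroblast genes were higher in class II spots. Scar matrix genes were 1.45-fold (1.44 to 1.46) higher in class II spots of the PD1 KO section and 1.22-fold (1.20 to 1.24) in the PD1 Het section, fibroblast markers 1.42-fold (1.40 to 1.44) and 1.25-fold (1.22 to 1.28), and epicardial markers 1.48-fold (1.32 to 1.65) and 1.33-fold (1.08 to 1.64). Col1a1 is in both the scar and the fibroblast list and gave 14039 of the 27287 fibroblast UMIs in PD1 KO class II spots. The median ratio of the 8 fibroblast genes was 1.23 in the PD1 KO section and 1.29 in the PD1 Het section. Cthrc1, a gene of activated fibroblasts, was 1.54-fold (1.39 to 1.71) higher in the PD1 KO section and 1.40-fold (1.08 to 1.801) in the PD1 Het section. Cardiomyocyte markers stood at 0.98-fold (0.97 to 0.98) and 0.97-fold (0.97 to 0.98). Class II spots therefore differed from other spots in tissue composition as well as in leukocyte markers, and the part of each in the other was not tested.

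**Figure D4:**
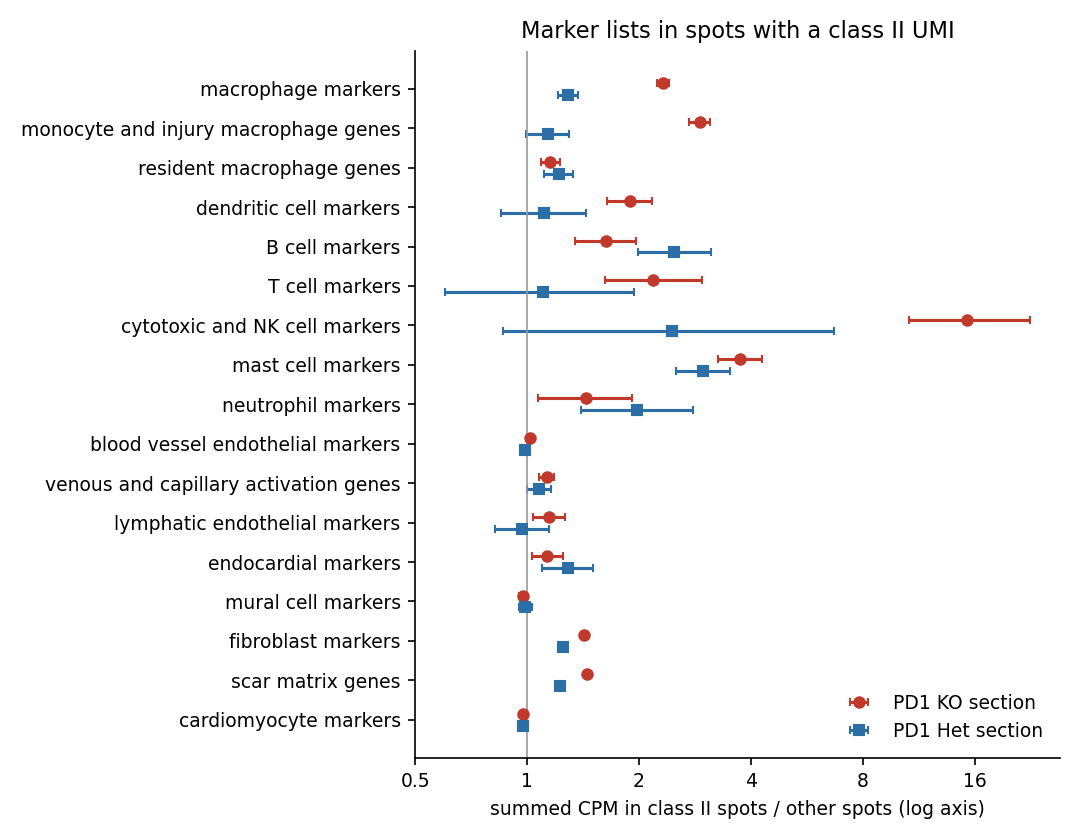
Ratio of the summed CPM of each marker list in spots with a class II UMI over spots with none, on a log axis, with the PD1 KO section as red circles above the PD1 Het section as blue squares and 95% counting intervals as bars. Macrophage markers stand at 2.32 and 1.29, mast cell markers at 3.73 and 2.97, and blood vessel endothelial markers at 1.02 and 0.99.

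Macrophage markers were higher with each further class II UMI in both sections, and B cell markers in the PD1 Het section. For spots with 0, 1, 2 and at least 3 class II UMIs after thinning, macrophage markers had 335, 455, 624 and 1557 CPM in the PD1 KO section (561, 152, 49 and 77 spots). In the PD1 Het section they had 351, 388, 500 and 968 CPM (586, 129, 30 and 14 spots). B cell markers in the same order had 16.5, 22.2, 14.8 and 44.95 CPM in the PD1 KO section and 19.8, 40.3, 50.9 and 130 CPM in the PD1 Het section. Blood vessel endothelial markers stayed between 2663 and 2905 CPM in the PD1 KO section and between 2236 and 2405 CPM in the PD1 Het section.

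Asking for at least 2 class II UMIs, at which single stray UMIs weigh less, moved the macrophage, dendritic, B cell and mast cell ratios further from 1. Macrophage markers were then 3.53-fold (3.38 to 3.68) higher than in spots with none in the PD1 KO section and 1.87-fold (1.69 to 2.07) in the PD1 Het section. B cell markers stood at 1.99-fold (1.57 to 2.5004) and 3.93-fold (2.84 to 5.35) in that order, and dendritic cell markers at 2.91-fold (2.48 to 3.40) and 1.59-fold (1.02 to 2.36). Neutrophil markers moved closer to 1, at 1.097-fold (0.70 to 1.67) in the PD1 KO section and 1.499-fold (0.70 to 2.88) in the PD1 Het section, as did lymphatic markers in the PD1 KO section, at 1.104-fold (0.96 to 1.26). In the PD1 Het section lymphatic markers stood at 0.84-fold (0.59 to 1.16) and T cell markers at 0.81-fold (0.16 to 2.51). Mast cell markers, without the richest mast cell spot of each section, stood at 3.64-fold (3.08 to 4.31) in the PD1 KO section and 2.77-fold (2.06 to 3.68) in the PD1 Het section.

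Spots also differed by which member was found in them. In the PD1 KO section macrophage markers had 908 CPM (881 to 936) in the 187 spots with an alpha or beta chain UMI, 531 CPM (498 to 566) in the 70 spots with Cd74 but no chain, and 454 CPM (401 to 512) in the 21 spots with H2-DM alone, against 335 CPM (326 to 344) in spots with none. The PD1 Het values were 524 CPM (487 to 563) in 86 spots, 389 CPM (353 to 427) in 69 spots and 348 CPM in 18 spots, against 351 CPM (340 to 363). Spots with a chain UMI thus had the highest macrophage level in both sections. Such spots could also hold Cd74 or H2-DM UMIs, whereas the other classes held no chain UMI. The kind of member and the number of class II UMIs in a spot were therefore not told apart.

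The sections differed most in their macrophage-rich spots, among the bins compared here. By their share of macrophage marker UMIs, the spots of a section were ordered and divided into 5 bins of equal size. From the lowest to the highest bin, class II levels were 23.2, 30.2, 43.7, 58.2 and 393 CPM in the PD1 KO section and 27.1, 19.9, 27.0, 45.01 and 66.3 CPM in the PD1 Het section. The PD1 KO over PD1 Het ratio was 0.86 (0.63 to 1.17) in the lowest bin, 1.52 (1.11 to 2.11), 1.62 (1.24 to 2.15) and 1.29 (1.03 to 1.62) in the next 3, and 5.93 (5.01 to 7.06) in the highest. The difference in class II level thus lay mainly in the macrophage-rich spots, and in the macrophage-poor spots the interval includes equal CPM. Bin ratios here and below are of CPM, with the 1.26-fold of the median gene over the whole sections not taken out. This 1.26 lies above the interval of the lowest bin and inside those of the next 3.

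Macrophage content in the highest bin also differed, at 1528 CPM of markers in the PD1 KO section and 1062 CPM in the PD1 Het section. With bins cut at the same marker levels in both sections, an alternative chosen after seeing the data, the ratios from low to high were 0.87 (0.64 to 1.18), 1.14 (0.82 to 1.58), 1.58 (1.20 to 2.08), 1.24 (0.99 to 1.56) and 5.25 (4.42 to 6.28). Per 100 macrophage marker UMIs of the whole section there were 20.4 class II UMIs in the PD1 KO section and 9.40 in the PD1 Het section, 2.17-fold (1.95 to 2.42). Macrophage markers as a list were at the median gene, with a relative log2 ratio of 0.00 (-0.05 to 0.05) between the sections. Against the complement genes C1qa, C1qb and C1qc alone the ratio was 2.33 (2.08 to 2.61).

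Class II levels also followed the scar matrix genes. From the lowest to the highest matrix bin they were 26.0, 53.0, 55.6, 114 and 292 CPM in the PD1 KO section, and 24.2, 23.6, 42.7, 26.8 and 67.3 CPM in the PD1 Het section. The highest bin over the lowest gave 11.2 (9.39 to 13.5) in the PD1 KO section and 2.78 (2.07 to 3.77) in the PD1 Het section, and for macrophage bins 16.9 (14.02 to 20.7) and 2.45 (1.83 to 3.29). For bins by blood vessel endothelial markers the corresponding values were 0.98 (0.87 to 1.1) and 1.07 (0.80 to 1.43). The PD1 KO over PD1 Het ratio from the lowest to the highest matrix bin was 1.08 (0.80 to 1.47), 2.25 (1.70 to 2.999), 1.30 (1.04 to 1.64), 4.25 (3.29 to 5.57) and 4.34 (3.66 to 5.17). With bins cut at the same matrix levels in both sections, also chosen after seeing the data, it was 0.896 (0.63 to 1.26), 0.76 (0.60 to 0.97), 2.71 (1.99 to 3.75), 2.55 (1.96 to 3.37) and 3.06 (2.54 to 3.71). The ratio of the second bin thus turned with the cut, and that of the highest bin stayed above 1. Macrophage and matrix content move together in these sections, and their separate parts were not tested.

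**Figure D5:**
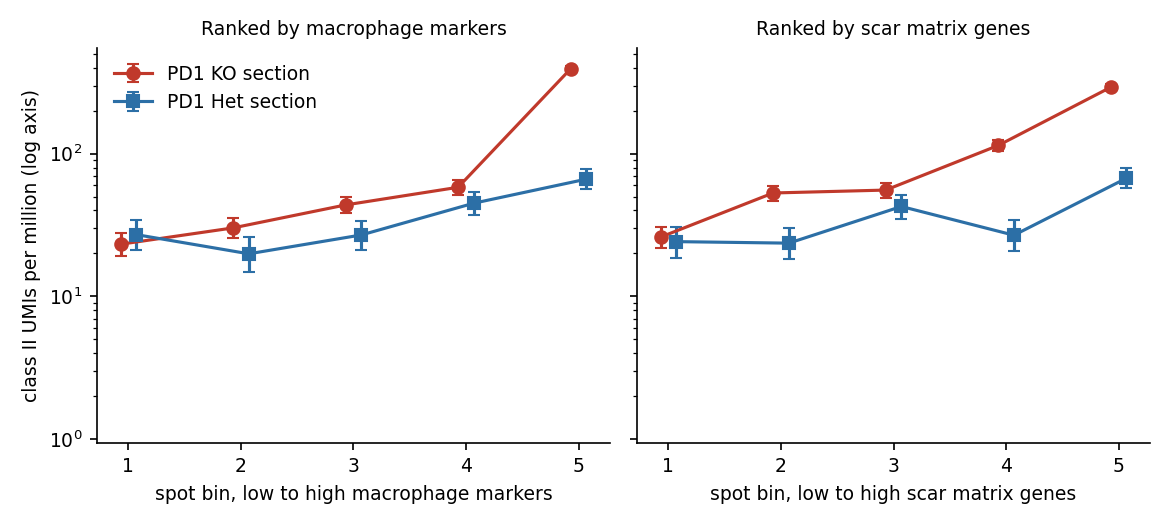
Class II level in CPM on a log axis in 5 bins of spots, ranked from low to high by macrophage markers on the left and by scar matrix genes on the right, with the PD1 KO section as red circles, the PD1 Het section as blue squares and 95% counting intervals as bars. The lowest bins overlap (23.2 and 27.1 CPM by macrophage markers) and the highest bins are apart (393 and 66.3 CPM).

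Seen from the other cells, class II RNA was higher in both sections in thinned spots with macrophage, dendritic cell, B cell or monocyte and injury macrophage markers. Other lists were less uniform. For spots with over spots without a macrophage marker UMI, the ratio was 3.62 (2.86 to 4.64) in the PD1 KO section and 1.82 (1.23 to 2.80) in the PD1 Het section. Spots with a dendritic cell marker UMI had 218 CPM of class II RNA and those without had 50.4 CPM in the PD1 KO section, 4.33-fold (3.98 to 4.72), and 50.3 and 31.0 CPM in the PD1 Het section, 1.62-fold (1.31 to 2.01). For T cell markers the ratio was 4.20 (3.77 to 4.66) in the PD1 KO section and 1.38 (0.91 to 2.03) in the PD1 Het section. For B cell markers it was 1.92 (1.74 to 2.11) and 1.501 (1.21 to 1.86) in that order, and for monocyte and injury macrophage genes 3.56 (3.18 to 3.99) and 1.84 (1.51 to 2.25). For resident macrophage genes it was 1.96 (1.69 to 2.30) in the PD1 KO section and 0.686 (0.555 to 0.853) in the PD1 Het section. The PD1 Het value rests on 1 spot with 29 class II UMIs and 0 resident UMIs, and without the richest class II spot of each section the ratios were 1.801 (1.55 to 2.11) and 0.89 (0.70 to 1.13). Spots with a lymphatic marker UMI stood at 1.02 (0.93 to 1.104) in the PD1 KO section and 1.37 (1.13 to 1.66) in the PD1 Het section. Those with a mast cell marker UMI stood at 1.77 (1.61 to 1.95) and 1.22 (0.96 to 1.55) in that order, and those with a cytotoxic or NK marker UMI at 5.49 (4.88 to 6.16) and 1.102 (0.36 to 2.59). The cytotoxic or NK values rest on 29 PD1 KO and 8 PD1 Het spots with such a UMI. The PD1 KO spot with 155 Ccl5 UMIs held 71 class II UMIs, beside 344 in all 29 spots, and was not left out.

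The genes most like the class II sum were looked for among 8240 genes by Pearson correlation over 851 PD1 KO and 811 PD1 Het spots, ranked by the lower of both values. Among the first 10 were Col3a1, Coro1a, Cotl1, Arrb2, Snhg18, Fbln1, Col16a1, Col1a2 and Col5a2. Col3a1, fibrillar collagen III, had r = 0.36 in the PD1 KO section and 0.19 in the PD1 Het section, and Coro1a, an actin regulator of leukocytes, 0.33 and 0.19. Fbln1, the matrix protein fibulin-1, had 0.44 and 0.18 in the same order. Spots of 1 section share their library, depth range and tissue layout, and correlations this weak in sparse counts are a description only.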

How the data were processed

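The deposited matrices of 1 PD1 KO and 1 PD1 Het Visium section hold raw UMI counts per gene and spot. Space Ranger 1.1.0 wrote them, per the file headers. Per the submitters' processing notes the builds were mm10 and GRCm38. Which aligner settings and annotation served the counting is not given in the sources used here. Spot positions were not used.

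Spots with at least 500 UMIs were kept, and sums were scaled to CPM of all UMIs. Intervals are exact Poisson, binomial (Clopper-Pearson) or conditional ones at 95%, and for class II per macrophage UMI they come from 2000 Poisson draws. The limit for a count of 0 is 3 counts. Shares used 1 draw of 10000 UMIs per spot. Gene locations are from GENCODE vM21. No test was run, spots were not taken as replicates, and the procedures were tested on simulated data.

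The 6 members, the 19 lists and the rule for named genes were chosen with earlier results of these data known. Named were the members, the pathway genes, up to 3 genes per list with at least 30 UMIs and the largest class II spot ratio by the lower section, and the 10 genes most like the class II sum. Some genes that this rule names are not reported here. Csf1r, F13a1, Itgax, Acta2 and the genes of single spots were chosen after their values were seen. Alternatives covered scaling (TMM in edgeR 4.0.16, median of ratios, no mitochondrial genes), thinning, class II spot rules, bins, marker sets and single spots left out. Python 3.11.15 with numpy 2.4.6, scipy 1.17.1 and pandas 2.3.3, and R 4.3.3, were used.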

Additional observations from a re-analysis of the deposited data

Results flagged for a closer look

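In spots with a UMI of a resident macrophage gene, the class II level was 1.96 times (1.69 to 2.30) that of spots without one in the PD1 KO section, at 103 against 52.5 CPM in 720 and 119 spots. In the PD1 Het section it was 0.686 times (0.555 to 0.853), at 31.7 against 46.1 CPM in 602 and 157 spots. The values lie on opposite sides of 1, which brought them out, and their difference was not tested. The PD1 Het value rests on 1 spot, which held 29 of the 123 class II UMIs of spots without a resident UMI. Without the richest class II spot of each section the ratios were 1.801 (1.55 to 2.11) in the PD1 KO section and 0.89 (0.70 to 1.13) in the PD1 Het section. Asked the other way round, the summed resident macrophage list was higher in class II spots of both sections, at 1.16-fold (1.09 to 1.22) in the PD1 KO section and 1.22-fold (1.11 to 1.33) in the PD1 Het section. The median ratio of its 8 genes with at least 30 UMIs was 0.96 in the PD1 KO section and 1.21 in the PD1 Het section.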

How the results depend on the processing

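The log2 CPM ratio of the class II sum, 1.45, was 1.14 with edgeR TMM factors, 1.14 with median-of-ratios factors and 1.27 with a total without mitochondrial genes. These scalings shift every ratio by -0.31, -0.31 and -0.18, so ratios relative to the median gene do not move. All 30 member ratios under alternatives stayed above 0, and 28 stayed within the counting interval. The thinned shares of spots were 20.5% in the PD1 KO section and 13.3% in the PD1 Het section at 5000 UMIs, and 53.1% and 29.7% without thinning. Without the richest spot, the top 5% of PD1 KO spots held 52.5% of class II UMIs. Co-detection in the PD1 KO section was 50.9% without thinning. The macrophage ratio of class II spots was 3.53 in the PD1 KO section and 1.87 in the PD1 Het section with at least 2 UMIs, and 2.54 and 1.47 with the alpha and beta chain genes alone. In the PD1 KO section it was 2.85 at 5000 UMIs and 2.21 without the spot richest in macrophage markers. Per macrophage UMI the ratio was 2.42 without Mpeg1 and Lyz2. With 3 bins, the highest over the lowest in the PD1 KO section was 10.7 for macrophage markers and 6.68 for matrix genes. None of the values named so far turned in direction. Among the alternatives chosen after seeing the data, cutting bins at the same matrix levels took the PD1 KO over PD1 Het ratio of the second matrix bin to 0.76, against 2.25. Leaving out the spot richest in the list or gene took the PD1 Het ratio of lymphatic markers to 1.08, against 0.97, and of Ccl21a to 1.28, against 0.83. Setting class II spots by the alpha and beta chain genes alone took the PD1 Het ratio of endocardial markers to 0.91, against 1.29, and of lymphatic markers to 1.07. The cause was not tested. No paired analysis was possible because each genotype has 1 section, and no replicate could be left out. Leaving out the richest spot of a list or gene, leaving out the richest class II spot when spots are split by a list, cutting bins at the same levels, and the share expected over all draws (32.4% in the PD1 KO section, 21.5% in the PD1 Het section) were chosen after seeing the data. Depth limits H2-DMb1, with 40 and 15 UMIs, and every PD1 Het pair of genes.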
